A study of Rattus norvegicus with 18 samples.

Results

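The genes described here encode methyltransferases that place repressive marks on histone lysines, together with core partners of 1 such enzyme complex. They were Suv39h1, Suv39h2, Ehmt2 and Setdb1 (lysine 9 of histone H3, H3K9), Suv420h1 and Suv420h2 (lysine 20 of histone H4, H4K20), and Ezh1, Ezh2, Eed and Suz12 of Polycomb repressive complex 2 (H3K27). Members were found by the array's gene symbol, ignoring case and the ending that marks a predicted gene. Of the 10 listed genes, 8 had a probe under their symbol, on an array of 22523 probes. Where a gene had several probes, the one with the highest mean signal was used. The only probe for Ezh2 carried a locus name and was reached through its gene ID, so its values are given beside the others and are not in the counts of members. Suz12 was matched to no probe and was not analysed here.

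Methylation of lysine 9 of histone H3 is bound by heterochromatin proteins, and the SUV420 enzymes act after it at heterochromatin. SUV39H1 and SUV39H2 place trimethylation there, EHMT2 (also called G9a) places mono- and dimethylation in euchromatin, and SETDB1 acts with the co-repressor TRIM28. In Polycomb repressive complex 2 either EZH1 or EZH2 is the catalytic subunit, and EED and SUZ12 are needed for its activity. EZH2 is best known from dividing progenitors and EZH1 from cells that have stopped dividing. CHD5, the protein targeted in this study, is a chromatin remodeling ATPase found mainly in neurons.

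Primary cortical neurons from rat embryos of day 18 were infected for 6 hours, on day 1 after plating, with a pLKO.1 lentivirus that expressed CHD5 shRNA or a scrambled control. RNA was harvested on days 5, 9 and 12. The 6 groups (control and CHD5 shRNA on each day) had 3 arrays each, labelled replicates a, b and c, which made 18 Illumina RatRef-12 arrays. All arrays with CHD5 shRNA came from 1 CHD5 lentivirus, so on them an effect of CHD5 loss and another effect of that shRNA cannot be told apart. The study reported a rise of Suv39h1 and Suv420h2 by quantitative PCR in independent samples. It treated a target that failed with a different shRNA as possibly off-target. Those data were not examined here. The sources used here do not say whether the replicates were separate cultures, so p-values measure the spread between these samples, which may be technical. Chd5 itself was not analysed here, so the knockdown was not checked on these arrays. The number of arrays limits the precision.

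1 control array of day 9, replicate b, stood apart from the other 17 and is called the dim array here. Its mean signal was 134.8 and the others ranged from 400.2 to 789.3. It detected 7047 probes, and the others 8360 to 9931. For Suv39h1, Suv420h1, Ehmt2, Setdb1, Eed and Ezh2 it gave the lowest normalized value of all 18 arrays. It also enters the spread that every comparison shares, so comparisons are given with all 18 arrays and, for most of them, also without it. A difference was called when its adjusted p in the limma fit across 11079 detected probes (Benjamini-Hochberg) was below 0.05. Levels are normalized log2 signals, which can be compared between arrays for a given probe but not between probes, and differences are on the same log2 scale.

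All 8 members found by symbol passed the detection filter. Suv39h1, Suv420h1, Suv420h2, Ehmt2, Setdb1 and Eed were detected on all 18 arrays, as was Ezh2. Ezh1 was detected on 17 arrays and Suv39h2 on 14, and both were close to background, with mean raw signals of 136.6 and 110.2. Background can compress the fold changes of such weak signals. The second probe of Ezh1 was detected on 0 of 18 arrays. The first 30 of the 50 bases are shown for the probes on which the results turn, and for both Ezh1 probes, which differ in detection.
Suv420h2: ggccaggtgtgacctcatctttttcacggt
Suv39h1: cccctttgtgaaactctgtaccctgctacc
Ezh2: tgaccatccacggcagccttgtgacagttc
Ezh1, the probe used: cccccgctcagagatgctgcgtgttcgtcc
Ezh1, the probe detected on 0 arrays: ccgatgtggccggatggggcaccttcatca
The positions of these probes in the genome were not derived here.

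The clearest differences between CHD5 shRNA and control were higher signals of Suv420h2 and Suv39h1. Suv420h2 was higher by 0.59 at day 5 (1.51-fold) and Suv39h1 by 0.96 at day 9 (1.94-fold). All 3 arrays with CHD5 shRNA lay above every control array of the same day, for Suv420h2 on days 5, 9 and 12 and for Suv39h1 on days 9 and 12. Of all probes, 10.96%, 20.57% and 38.21% had no overlap, in either direction, on days 5, 9 and 12. None of the other 6 members, nor Ezh2, was called between CHD5 shRNA and control on any day. In whole cultures, fewer cells of a type and less RNA per cell cannot be told apart.

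Suv420h2 (now Kmt5c) encodes an enzyme that di- and trimethylates H4K20. At day 5 its level was 10.89, 10.82 and 11.22 on the control arrays a, b and c. On the CHD5 shRNA arrays it was 11.42, 11.58 and 11.70. All 3 were above the highest control. The raw signals were 2085 to 3469 in control and 3614 to 5092 after CHD5 shRNA, far above background. At day 9 the level was 11.01, 10.69 and 10.87 in control. After CHD5 shRNA it was 11.27, 11.16 and 11.02, so that the lowest array lay just above the highest control. At day 12 the level was 10.34, 10.44 and 10.50 in control. After CHD5 shRNA it was 10.80, 10.73 and 10.69, again without overlap.

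The difference of Suv420h2 was 0.59 at day 5 (SE 0.12, limma adjusted p = 0.0493). It was called, close to the limit. It was 0.29 at day 9 (SE 0.12, limma adjusted p = 0.151) and 0.31 at day 12 (SE 0.12, limma adjusted p = 0.158), and neither was called. The exact permutation test of 3 against 3 arrays, two-sided, gave p = 0.1 on each day, the smallest it can give. Replicates of the same letter deviated together at day 5, with correlations of 0.17 to 0.38 over all probes. With the letter as a block over all days the call was lost (limma adjusted p = 0.0528), and with arrays of the same day and letter as a random block it was kept (limma adjusted p = 0.0217). Without the dim array the difference was 0.61 at day 5 (limma adjusted p = 0.0038). In that fit it was 0.22 at day 9 (limma adjusted p = 0.242) and 0.32 at day 12, which was called (limma adjusted p = 0.0468). The day 5 difference was called in 3 of the 18 fits that left out 1 array each, over a range of 0.52 to 0.71.

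Suv420h2 also fell over days in culture under both lentiviruses. In control it fell by 0.55 from day 5 to day 12 (SE 0.12, limma adjusted p = 0.0019). Most of that fall came after day 9, with a decrease of 0.43 from day 9 to day 12 (SE 0.12, limma adjusted p = 0.0451). After CHD5 shRNA it fell by 0.42 from day 5 to day 9 (SE 0.12, limma adjusted p = 0.0312). It dropped by 0.83 from day 5 to day 12 (SE 0.12, limma adjusted p = 6.14e-05). From day 9 to day 12 it differed by -0.41, which was not called (limma adjusted p = 0.118). Without the dim array that was -0.42 and was called (limma adjusted p = 0.02125). In the same fit the control differences were -0.56 from day 5 to day 12 and -0.52 from day 9 to day 12. After CHD5 shRNA they were -0.43 from day 5 to day 9 and -0.85 from day 5 to day 12. These were all called. Of 18 fits that left out 1 array each, all 18 called both falls from day 5 to day 12. The fall from day 9 to day 12 in control was called in 4, and the fall from day 5 to day 9 after CHD5 shRNA in 14. The order of the group means was CHD5 shRNA day 5, CHD5 shRNA day 9, control day 5, control day 9, CHD5 shRNA day 12 and control day 12. The arrays of control day 5 overlapped those of both day 9 groups. Those of CHD5 shRNA day 12 overlapped those of control day 9 only through the dim array.

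**Figure D1:**
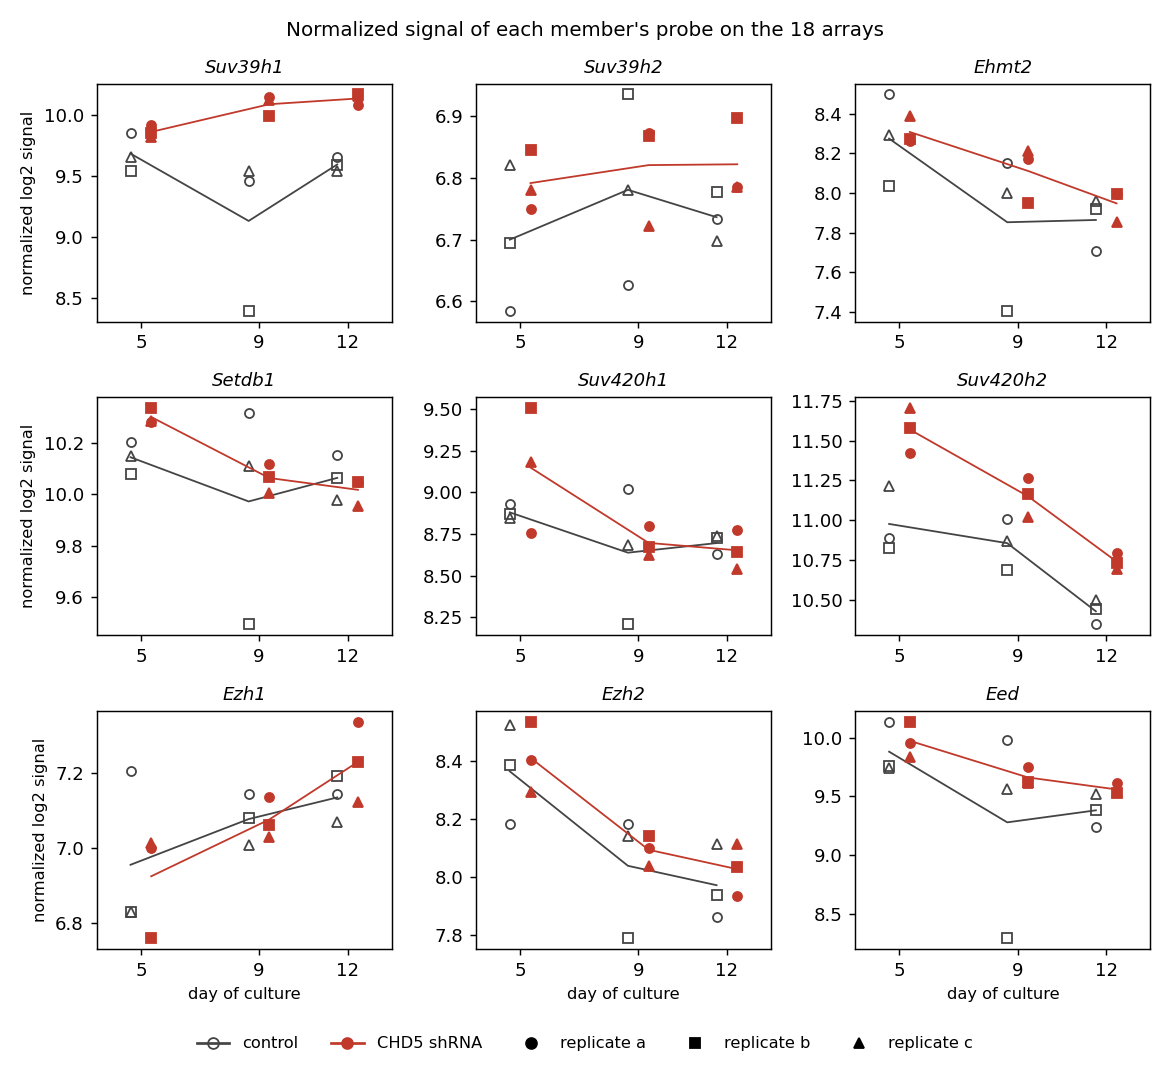
Normalized log2 signal (y axis, with a separate scale for each gene) against day of culture (x axis) for the probes of 9 genes on the 18 arrays. Open grey symbols are control and filled red symbols CHD5 shRNA, shapes give the replicate, and lines join the group means. In the Suv420h2 panel all 3 CHD5 shRNA arrays lie above all 3 controls on each day, in the Suv39h1 panel on days 9 and 12, and the open square at day 9 is the control array of replicate b, the lowest of all in 6 panels.

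Suv420h1 (now Kmt5b), the other gene for an H4K20 methyltransferase, was called on no day between CHD5 shRNA and control with all arrays. It was not tested against Suv420h2. At day 5 its level was 8.93, 8.87 and 8.84 in control. After CHD5 shRNA it was 8.76, 9.51 and 9.18, with 1 array below and 2 above the controls. The difference was 0.27 (95% interval -0.10 to 0.64, limma adjusted p = 0.999). At day 9 and day 12 it was 0.06 and -0.04, and neither was called. The day 9 value turned to -0.16 without the dim array, and was not called. From day 5 to day 12 its level after CHD5 shRNA differed by -0.50 (limma adjusted p = 0.0598), which was called without the dim array (-0.51, limma adjusted p = 0.007). It was also called without control day 9 replicate a (-0.49, limma adjusted p = 0.0235) and without CHD5 shRNA day 5 replicate a (-0.69, limma adjusted p = 0.0112). In control the same difference was -0.18, called in neither fit.

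Suv39h1 encodes an H3K9 methyltransferase of pericentric heterochromatin. At day 5 its level was 9.85, 9.54 and 9.66 in control. After CHD5 shRNA it was 9.92, 9.85 and 9.82, so the groups overlapped. At day 9 the control arrays gave 9.46, 8.40 and 9.54. The low value is that of the dim array, which differed from the mean of the other controls of that day by -1.11. The CHD5 shRNA arrays gave 10.15, 9.99 and 10.13. At day 12 the level was 9.65, 9.59 and 9.54 in control. After CHD5 shRNA it was 10.09, 10.17 and 10.15, with no overlap.

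The difference of Suv39h1 was 0.18 at day 5 (SE 0.20, limma adjusted p = 0.999). At day 9 it was 0.96 (SE 0.20, limma adjusted p = 0.0091) and was called. At day 12 it was 0.54 (SE 0.20, limma adjusted p = 0.146) and was not. The size of the day 9 difference rested in part on the dim array. Without it the difference was 0.60 at day 9 (SE 0.09, limma adjusted p = 0.000333). The day 12 difference was then 0.55 (SE 0.08, limma adjusted p = 0.00013), and both were called. At day 5 the difference without that array was 0.18, which was not called. Of the 18 fits that left out 1 array each, the day 9 difference was called in 17, and not without CHD5 shRNA day 9 replicate c (0.94, limma adjusted p = 0.0594). The call was lost with median centring (0.93, limma adjusted p = 0.095) or in a fit of the 6 arrays of day 9 (0.89, limma adjusted p = 0.335).

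Over days in culture Suv39h1 was not called in control with all arrays, where day 12 differed from day 5 by -0.09 (95% interval -0.50 to 0.33). Day 9 differed from day 5 by -0.55 in control with all arrays (limma adjusted p = 0.053) and by -0.19 without the dim array (limma adjusted p = 0.18). Leaving out another control array of day 9 instead, which gives the dim array more weight, made it a call. It was -0.71 without replicate a (limma adjusted p = 0.0097), and -0.76 when replicate c was the one left out (limma adjusted p = 0.0136). Without replicate a, the rise of 0.62 from day 9 to day 12 in control was called too (limma adjusted p = 0.0375). After CHD5 shRNA, day 12 differed from day 5 by 0.27 (limma adjusted p = 0.399). In the fit without the dim array the latter was 0.28 and was called (limma adjusted p = 0.0148).

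The other genes for H3K9 methyltransferases were not called in any of the 12 comparisons with all arrays. Suv39h2, a relative of Suv39h1 best known from testis, ranged from 6.58 to 6.94 over all arrays. Its CHD5 shRNA difference was 0.09, 0.04 and 0.09 on days 5, 9 and 12. The 95% intervals ran from -0.16 at the lowest to 0.29 at the highest, on a probe close to background. The dim array did not detect it but gave its highest normalized value, and without that array the day 9 difference was 0.12. At day 12 its groups did not overlap, as for 38.21% of all probes.

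Ehmt2 encodes the euchromatic H3K9 methyltransferase. At day 5 its level was 8.50, 8.03 and 8.29 in control, and it was 7.71, 7.92 and 7.96 at day 12. The groups did not overlap, as for 44.29% of all probes in that comparison. The difference was -0.41 (limma adjusted p = 0.0678), and without the dim array it was -0.42 and called (limma adjusted p = 0.0048). It was called as well without control day 5 replicate b (-0.53, limma adjusted p = 0.0379) and without control day 9 replicate a (-0.41, limma adjusted p = 0.037). After CHD5 shRNA, day 12 differed from day 5 by -0.36 (limma adjusted p = 0.134), and by -0.37 without that array (limma adjusted p = 0.014). Between CHD5 shRNA and control Ehmt2 differed by 0.03, 0.26 and 0.08 on days 5, 9 and 12, and the day 9 value was 0.04 without that array.

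Setdb1 encodes the methyltransferase recruited by TRIM28. After CHD5 shRNA its level was 10.28, 10.34 and 10.29 at day 5. It was 10.05, 10.05 and 9.96 at day 12, below every day 5 array, in a comparison where 47.59% of all probes did not overlap. The difference was -0.28 (limma adjusted p = 0.202), and -0.29 without the dim array, which was called (limma adjusted p = 0.0079). In control day 12 differed from day 5 by -0.08 (95% interval -0.38 to 0.22). The CHD5 shRNA difference of Setdb1 was 0.16, 0.09 and -0.05 on days 5, 9 and 12, called on no day. Without the dim array the day 9 value turned to -0.15 and was not called, nor was any other day. At day 5 the arrays of CHD5 shRNA and control did not overlap, as for 10.96% of all probes.

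Of the Polycomb repressive complex 2 genes, Eed and Ezh2 had lower group means at day 12 than at day 5 under both lentiviruses, and Ezh1 higher ones. Between these days 44.29% of all probes did not overlap in control and 47.59% after CHD5 shRNA. Eed encodes the subunit that binds trimethylated H3K27. Its level was 10.14, 9.76 and 9.74 in control at day 5, and 9.24, 9.38 and 9.52 at day 12, below all day 5 arrays. The difference was -0.50 with all arrays (limma adjusted p = 0.198). It was -0.51 without the dim array, and was called (limma adjusted p = 0.0021). The dim array differed from the mean of the other day 9 controls by -1.48 for Eed, the largest such gap among the 9 genes. After CHD5 shRNA day 12 differed from day 5 by -0.41 (limma adjusted p = 0.335), and by -0.42 without that array (limma adjusted p = 0.0106). The CHD5 shRNA difference of Eed at day 9 turned from 0.38 to -0.11 when that array was left out, and neither was called. With control day 9 replicate a left out instead it was 0.73, and was called (limma adjusted p = 0.043). Its day 12 difference was 0.18, with no overlap between the groups (38.21% of all probes had none), and was not called.

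Ezh2, reached by its gene ID, encodes the catalytic subunit of the complex in dividing cells. Its level was 8.18, 8.38 and 8.52 in control at day 5. It was 7.86, 7.94 and 8.11 at day 12, without overlap, as for 44.29% of all probes. The fall by 0.39 was called (SE 0.12, limma adjusted p = 0.0213). After CHD5 shRNA the level was 8.40, 8.53 and 8.29 at day 5, and 7.93, 8.03 and 8.11 at day 12. It fell by 0.38 (SE 0.12, limma adjusted p = 0.0315). Of 18 fits that left out 1 array each, 14 called the fall in control and 13 the fall after CHD5 shRNA. The control call was lost with median centring (limma adjusted p = 0.0706), no detection filter (limma adjusted p = 0.11), array weights (limma adjusted p = 0.0516) and only the control arrays (limma adjusted p = 0.117). The call after CHD5 shRNA was lost with median centring (limma adjusted p = 0.0804) and no detection filter (limma adjusted p = 0.177). Both falls were called without the dim array, with limma adjusted p = 0.0025 in control and 0.0038 after CHD5 shRNA. The change from day 5 to day 12 differed between the lentiviruses by 0.01 (95% interval -0.34 to 0.36). Between CHD5 shRNA and control Ezh2 differed by 0.05, 0.06 and 0.06 on days 5, 9 and 12, with 95% intervals from -0.20 at the lowest to 0.30 at the highest. Its day 9 value turned to -0.07 without the dim array. After CHD5 shRNA, day 9 differed from day 5 by -0.32 and was not called (limma adjusted p = 0.103). It was called without the dim array (-0.32, limma adjusted p = 0.0181).

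Ezh1, the alternative catalytic subunit, moved the other way over time. After CHD5 shRNA its level was 7.00, 6.76 and 7.01 at day 5. It was 7.34, 7.23 and 7.12 at day 12, all above day 5, in a comparison where 47.59% of all probes did not overlap. The difference was 0.30 (limma adjusted p = 0.0649), and 0.31 without the dim array, which was called (limma adjusted p = 0.026). In control it was 0.18, called in neither fit. Without control day 5 replicate a it was 0.30 under both lentiviruses, and called (limma adjusted p = 0.0477 in control and 0.0296 after CHD5 shRNA). Over the 18 arrays the levels of Ezh1 and Ezh2 had a Pearson r of -0.77, and -0.84 over 17 arrays without that control array. This is a description, since arrays of the same day are alike.

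**Figure D2:**
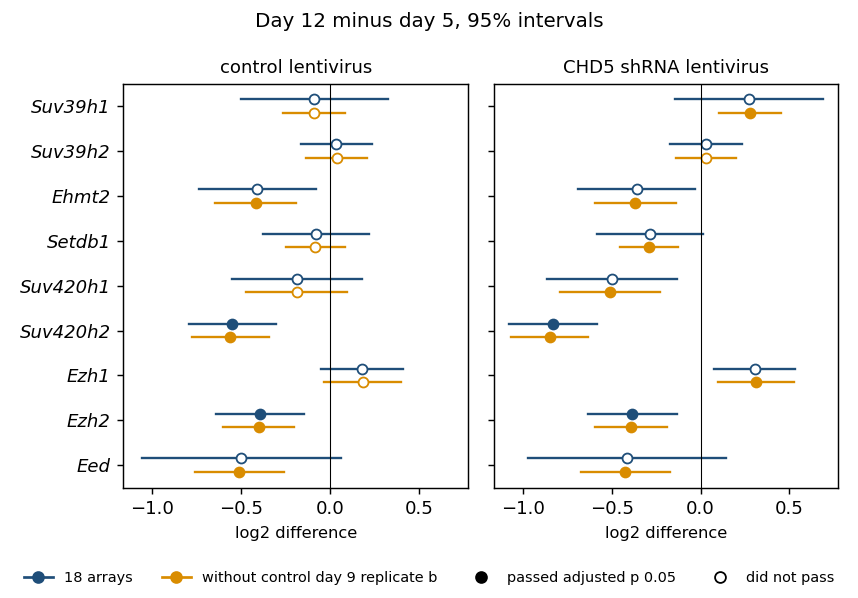
Difference between day 12 and day 5 on the log2 scale (x axis) for each gene (y axis), in control (left) and after CHD5 shRNA (right). Points are limma estimates with 95% intervals, in blue with 18 arrays and in orange without the dim array, and filled points passed an adjusted p of 0.05. In blue Suv420h2 and Ezh2 are filled in both panels, while in orange all genes but Suv39h2 are filled on the right.

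Counted over the 8 members found by symbol, 1 was called between CHD5 shRNA and control at day 5 (Suv420h2, higher), where 0.171% of all tested probes were called. At day 9 it was 1 (Suv39h1, higher), against 5.89% of all probes. At day 12 it was 0, against 5.47%, with 2 members at an unadjusted limma p under 0.05. With the dim array left out, the counts were 1 at day 5 (1.46% of all probes), 1 at day 9 (10.6%) and 2 at day 12 (13%). The groups did not overlap for 2, 2 and 4 of the 8 members on days 5, 9 and 12, beside 10.96%, 20.57% and 38.21% of all probes. With 8 members, neither these counts nor the single call at day 9 stand clear of the background. The median difference of the members was 0.12, 0.17 and 0.09 on days 5, 9 and 12, beside 0.01, -0.02 and 0.01 over all probes. Without that array the day 9 median of the members was 0.02, beside 0.03 over all probes.

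**Figure D3:**
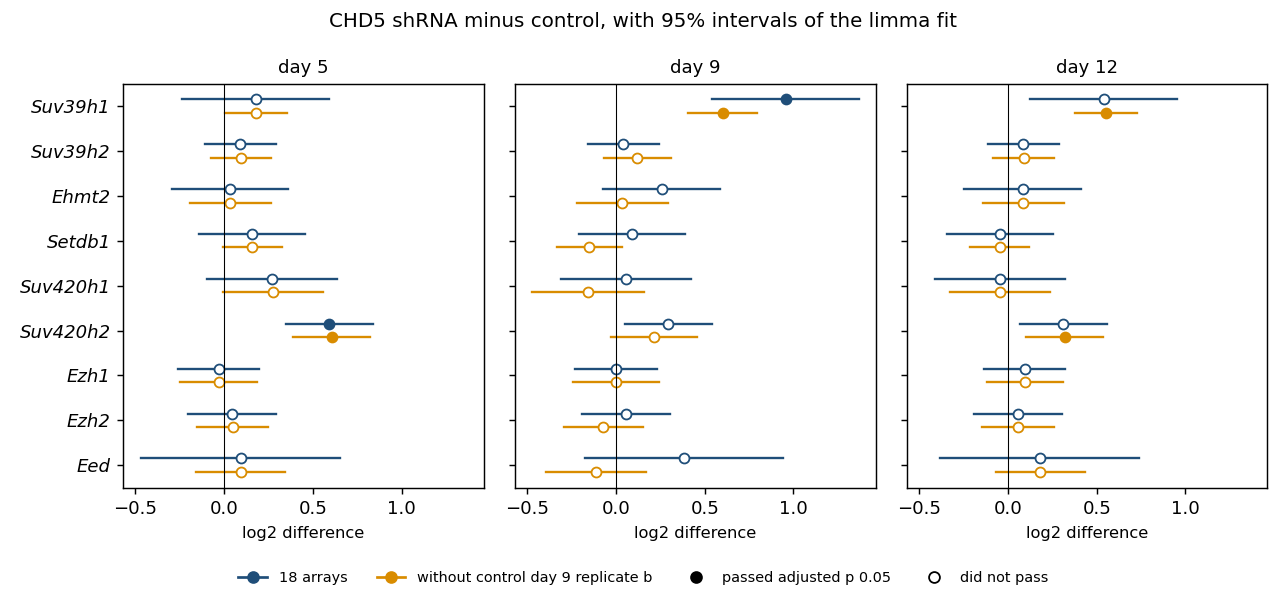
Difference between CHD5 shRNA and control on the log2 scale (x axis) at days 5, 9 and 12 for each gene (y axis). Points are limma estimates with 95% intervals, in blue with 18 arrays and in orange without the dim array, and filled points passed an adjusted p of 0.05. Only Suv420h2 and Suv39h1 have filled points, and the day 9 point of Suv39h1 moves from 0.96 to 0.60 without that array.

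Over days in control, 0 members were called from day 5 to day 9 (22% of all probes, 3 members at an unadjusted limma p under 0.05). From day 9 to day 12 it was 1 (Suv420h2, lower, 4.16% of all probes), and from day 5 to day 12 also 1 (Suv420h2, lower, 23.6%). After CHD5 shRNA, 1 was called from day 5 to day 9 (Suv420h2, lower, 9.33%). From day 9 to day 12 it was 0 (1.37%, 1 member at an unadjusted limma p under 0.05), and from day 5 to day 12 it was 1 (Suv420h2, lower, 17%). Days 5 and 12 did not overlap for 4 of the 8 members in control, beside 44.29% of all probes. After CHD5 shRNA this held for 6 of the 8, beside 47.59%.

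Without the dim array, more members were called over time. In control the counts were 0 from day 5 to day 9 (20.7% of all probes), 1 from day 9 to day 12 (6.23%) and 3 from day 5 to day 12 (38.4%), all of them lower. After CHD5 shRNA they were 4 from day 5 to day 9 (25.4%), 1 from day 9 to day 12 (4.91%) and 7 from day 5 to day 12 (31.6%). Of those 7, 5 were lower (Suv420h1, Suv420h2, Ehmt2, Setdb1 and Eed) and 2 higher (Suv39h1 and Ezh1). Of the 4 from day 5 to day 9, Suv39h1 was higher (0.23), and Suv420h1 (-0.46), Suv420h2 (-0.43) and Setdb1 (-0.24) were lower. The median of the 8 members from day 5 to day 12 after CHD5 shRNA was -0.33 in that fit, beside -0.01 over all probes. The array left out belongs to neither group of this comparison, and entered it only through the shared spread and scaling. The comparisons over days and those between lentiviruses share arrays, so their calls are not independent.

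No member's CHD5 shRNA difference was shown to change between days. The test of that change called 0 members between days 5 and 9 (0% of all probes), 0 between days 9 and 12 (0%) and 0 between days 5 and 12 (0.153%). At an unadjusted limma p under 0.05 it held 1, 0 and 0 members. The lowest adjusted p was that of Suv39h1 between days 5 and 9, with a change of 0.78 (95% interval 0.19 to 1.36, limma adjusted p = 0.514). With the dim array left out, that change was 0.42 (limma adjusted p = 0.129). For Suv420h2 the change between days 5 and 12 was -0.28 (95% interval -0.63 to 0.07), so that calls at 1 day and not at another do not show that the days differ.

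Windows around the RefSeq gene starts (build GRCr8) are shown for the genes with a call in the fit with 18 arrays, since they show which common promoter elements lie there. A window was found for 9 of the 10 listed genes, and each ran from 250 bases before the start to 50 after it. The motifs searched on both strands were those of E2F, with the letters TTTGGCGC or TTTCCCGC. The ETS motif was searched as CCGGAAG. The GC box was searched as GGGCGG. The letters CCAAT stood for the CCAAT box. No motif's letters contain another's. Matches are in capitals, on the strand of the gene, for 280 bases up to 30 after the start.
Suv420h2 (chr1:78135902-78136181, minus strand): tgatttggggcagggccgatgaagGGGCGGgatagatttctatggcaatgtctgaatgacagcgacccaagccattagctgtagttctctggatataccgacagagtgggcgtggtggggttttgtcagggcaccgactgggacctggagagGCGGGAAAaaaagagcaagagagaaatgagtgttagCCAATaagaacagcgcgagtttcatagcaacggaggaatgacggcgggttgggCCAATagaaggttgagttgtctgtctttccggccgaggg
Suv39h1 (chrX:17092809-17093088, plus strand): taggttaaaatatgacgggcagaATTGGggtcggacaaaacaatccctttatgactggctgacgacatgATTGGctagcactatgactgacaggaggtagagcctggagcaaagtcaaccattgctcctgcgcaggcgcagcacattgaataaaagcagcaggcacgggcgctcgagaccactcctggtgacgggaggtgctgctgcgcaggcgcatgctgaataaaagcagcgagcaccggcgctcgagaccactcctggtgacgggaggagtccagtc
Ezh2 (chr4:77687154-77687433, minus strand): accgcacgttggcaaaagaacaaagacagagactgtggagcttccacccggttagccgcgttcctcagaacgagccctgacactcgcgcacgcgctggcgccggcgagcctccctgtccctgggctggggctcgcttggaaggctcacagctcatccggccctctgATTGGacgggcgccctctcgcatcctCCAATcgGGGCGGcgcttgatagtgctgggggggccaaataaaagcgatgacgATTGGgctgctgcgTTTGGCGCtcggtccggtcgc

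The Suv420h2 window held an E2F match on the opposite strand, 1 GC box and 2 CCAAT boxes. The Ezh2 window held an E2F match just after the start, 1 GC box and 3 CCAAT boxes. The Suv39h1 window shown held 2 CCAAT boxes and no E2F match. RefSeq gave 2 windows for Suv39h1, and the other was not searched for the gene. Suz12 was the other listed gene with an E2F match. Among all 33469 windows, 0.493% held TTTGGCGC, 0.974% TTTCCCGC, 8.75% the ETS motif, 33.1% the GC box and 37.5% the CCAAT box. The 9 windows held 15 to 41 CpG dinucleotides, beside a median of 7 over all windows. A match is a run of letters and was not tested for binding.

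Other genes of these pathways came from lists of partners and readers of H3K9 methylation, H4K20 methylation, Polycomb complexes 1 and 2, H3K9 and H3K27 demethylases and DNA methyltransferases. They held 33 genes that passed the detection filter, and none of the 4 H4K20 partners was matched to a probe. Between CHD5 shRNA and control 0.171%, 5.89% and 5.47% of all probes were called on days 5, 9 and 12 with all arrays. Of the 33 genes, 0 were called on each of these days. Without the dim array there were 0 at day 5 (1.46% of all probes), 1 at day 9 (10.6%) and 3 at day 12 (13%), which does not exceed the background. At day 9 this was Trim28, the co-repressor that recruits SETDB1, higher by 0.37 (limma adjusted p = 0.0463). At day 12 they were Phf1 and Aebp2, encoding accessory subunits of Polycomb repressive complex 2, and Phc3 of complex 1. Phf1 was higher by 0.39 (limma adjusted p = 0.0417) and Phc3 by 0.29 (limma adjusted p = 0.0485). Aebp2 was lower, with a difference of -0.29 (limma adjusted p = 0.0445). These 4 were named after their values were seen.

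From day 5 to day 12 in control, 2 of the 33 were called higher and 5 lower (23.6% of all probes called), with a median of -0.13 beside -0.02 over all probes. Kdm6b, a demethylase of H3K27, fell by 1.12 (SE 0.13, limma adjusted p = 2.29e-06). Phc1, a subunit of Polycomb repressive complex 1, fell by 0.87 (SE 0.11, limma adjusted p = 7.33e-06). Cbx7, the chromodomain subunit of that complex that binds methylated H3K27, rose by 0.58 (SE 0.10, limma adjusted p = 0.000322). After CHD5 shRNA 3 of the 33 were higher and 5 lower over the same days (17% of all probes called). With the dim array left out, 2 were higher and 11 lower in control (38.4% of all probes called), and 3 and 10 after CHD5 shRNA (31.6%). Of 9 detected genes for activating methyltransferases and their partners, 0 were called between CHD5 shRNA and control on any day with all arrays. The shares of all probes were 0.171%, 5.89% and 5.47% on days 5, 9 and 12. With 17 arrays Nsd1 was called higher at day 9 (0.29, limma adjusted p = 0.0293), 1 of the 9 beside 10.6% of all probes. Dpy30 was called higher at day 12 (0.28, limma adjusted p = 0.023), 1 of the 9 beside 13%. From day 5 to day 12 in control 1 of the 9 was called with all arrays, Nsd1, an H3K36 methyltransferase, which fell by 0.28 (limma adjusted p = 0.0201). Leaving out the dim array gave 3 of 9 lower over those days (Nsd1, Smyd2 and Men1). Over those days 23.6% of all probes were called with all arrays and 38.4% without it, so these counts do not exceed the background.

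Markers of cell types also moved between the groups. Of the 10 neuron markers on the array 8 were detected on all 18 arrays, and Stmn2 and Syt1 had the highest mean raw signals. The summed normalized signal of these 10 ranged from 22000 to 25190 in control at day 5. It was 22480 to 23830 after CHD5 shRNA at day 5. At day 12 it was 26250 to 27330 in control and 27740 to 28560 after CHD5 shRNA. Tubb3, a neuronal tubulin, was the 1 neuron marker of 10 called after CHD5 shRNA with all arrays, higher at days 9 and 12. On these days 5.89% and 5.47% of all probes were called. With 17 arrays Syn1 was also called higher at day 12 (0.36, limma adjusted p = 0.0157) and Slc17a7 lower (-0.34, limma adjusted p = 0.0162). In that fit 2 of the 10 were higher and 1 lower at day 12, beside 13% of all probes called.

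All 8 detected astrocyte markers, led in signal by Slc1a3 and Gja1, were called higher from day 5 to day 12 in control, with a median of 2.05. Over all probes 23.6% were called over those days. Between CHD5 shRNA and control 5 of 8 were called lower at day 9 and 5 of 8 at day 12, with medians of -1.02 and -0.68, and 0 at day 5. The shares of all probes were 5.89%, 5.47% and 0.171% on days 9, 12 and 5. Without the dim array 5, 6 and 1 of the 8 were called lower on those days, beside 10.6%, 13% and 1.46% of all probes. The summed normalized signal of the astrocyte markers was 7981 to 8501 in control and 6309 to 6667 after CHD5 shRNA at day 5. At day 9 it was 23590 to 29120 in control, with 105800 on the dim array, and 15330 to 19430 after CHD5 shRNA. On day 12 the sum was 39000 to 41190 in control and 22210 to 23530 after CHD5 shRNA. It thus differed between the groups in which Suv39h1 and Suv420h2 differed, and its part in those differences was not tested.

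Of 12 detected proliferation markers, led by Pcna and Cdk1, 0 were called between CHD5 shRNA and control with all arrays. Over all probes 0.171%, 5.89% and 5.47% were called on days 5, 9 and 12. With the dim array left out, 5 of the 12 markers were called lower at day 5 (1.46% of all probes), 2 at day 9 (10.6%) and 1 at day 12 (13%). Their summed normalized signal was 10540 to 12610 in control and 9667 to 10080 after CHD5 shRNA at day 5. On day 12 the sum was 10200 to 10230 in control and 8768 to 8845 after CHD5 shRNA. Their part in the differences of the methyltransferases was not tested. Of 7 oligodendrocyte lineage markers, led by Olig1 and Pdgfra, 7 were called higher from day 5 to day 12 in control (23.6% of all probes called). Of 6 progenitor markers, led by Fabp7 and Vim, 1 was called lower after CHD5 shRNA at day 9 (5.89% of all probes). Without the dim array 2, 3 and 1 were called lower on days 5, 9 and 12, beside 1.46%, 10.6% and 13% of all probes. Of 4 microglia markers on the array, Itgam and Cx3cr1 were detected on no array, and Aif1 and Cd68 on 1 and 3 of 18, with mean raw signals of 79.46 and 92.82.

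**Figure D4:**
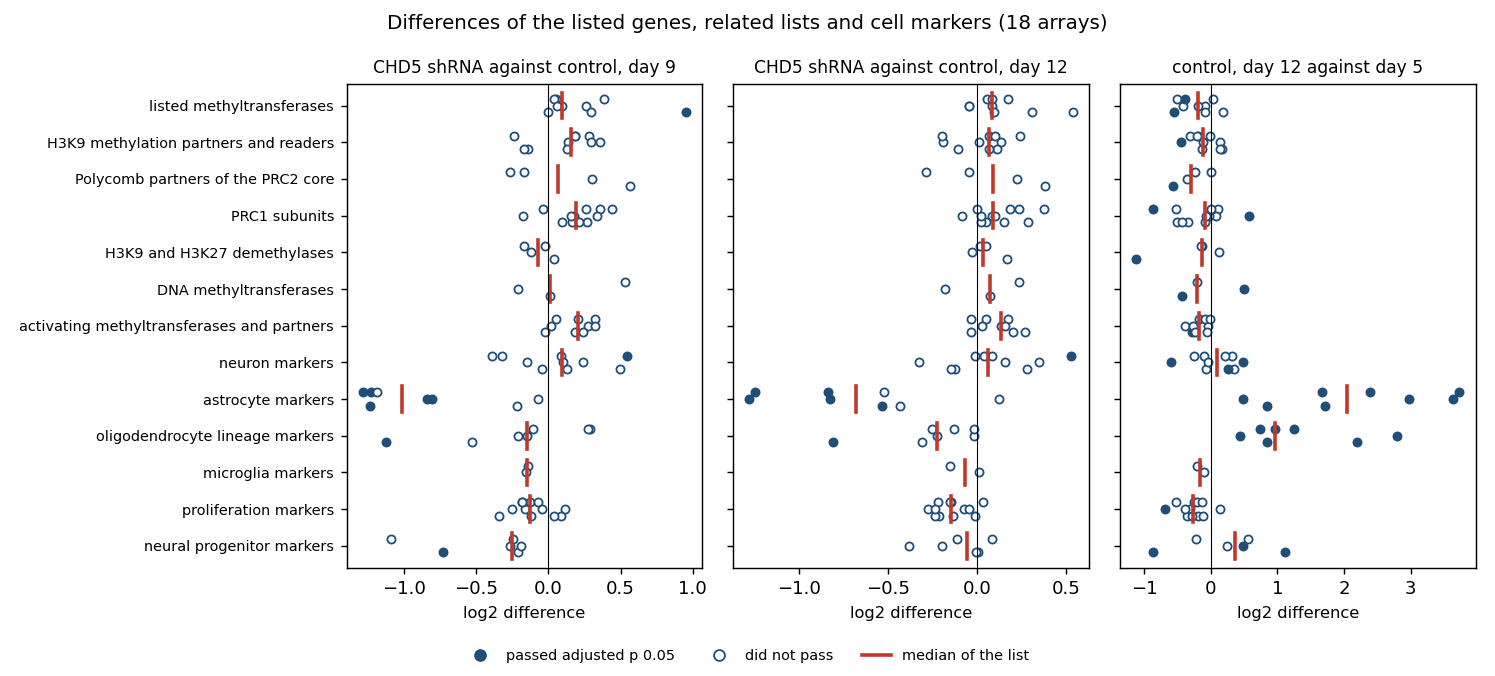
Log2 differences (x axis, with a separate scale for each panel) of single genes (points) in each list (y axis), between CHD5 shRNA and control at day 9 and day 12, and between day 12 and day 5 in control, from the fit with 18 arrays. The top line holds the 9 methyltransferase and Polycomb genes including Ezh2, filled points passed an adjusted p of 0.05, and red bars are medians. The astrocyte markers have medians of -1.02, -0.68 and 2.05 in the 3 panels, and in the last the oligodendrocyte lineage markers have a median of 0.96 and the Polycomb repressive complex 2 partners one of -0.30.

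The levels of some members varied together over the arrays, described here with no test, since arrays of a group and day are alike and the dim array enters each value. Eed had a Pearson r of 0.90 with Ehmt2 over 18 arrays and 0.85 over the 17 without that array. With Setdb1 it was 0.90 and 0.72. Suv39h1 had r of 0.55 with Ehmt2, 0.54 with Setdb1 and 0.66 with Eed over 18 arrays. Over 17 arrays these were 0.07, -0.28 and 0.00.

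By the highest Pearson r over the 18 arrays among all detected probes with a symbol, Suv420h2 was most like Tle2 (0.96) and Mmaa (0.91), and these were 0.96 and 0.91 without the dim array. Suv39h1 was most like Bpnt1 (0.96) and B3gat3 (0.96), which came to 0.91 and 0.89 without it. Ezh2 was most like Prkx (0.93) and Dpysl3 (0.91). Eed was most like RGD1311805 and LOC498095 (both 0.97), Ehmt2 like Ptov1 (0.94) and Papd1 (0.94), Setdb1 like Pank2 and RGD1304653 (both 0.96), and Suv420h1 like Stag1 (0.93) and Tbc1d19 (0.92).

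For the 6 samples of replicate a there was a second measurement, used only as an alternative. For the 9 genes the median difference between the measurements was 0.05 to 0.17 on the log2 scale, and the highest was 0.28 (Suv420h1, control day 5). Over all probes the median was 0.09. With the second measurements the day 5 difference of Suv420h2 was 0.56 and was not called (limma adjusted p = 0.073).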

How the data were processed

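RNA of 18 samples was hybridized to Illumina RatRef-12 arrays. Each deposited signal intensity averages the beads of a probe; the authors obtained it with GenomeStudio 1.1.1 (submitters' processing notes), and the file header states no normalization and no subtraction of background. The deposited detection p-value sets a probe against negative control beads. The Z-score transformation of the authors' methods was followed.

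Probes were kept if their detection p-value was 0.02 or less on any of the 18 arrays (11079 of 22523). Z-scores of log2 intensities were taken per array, then rescaled by the mean SD over arrays and the grand mean. This equalizes the spread of the arrays and so stretches the dim one. With R 4.3.3 and limma 3.58.1, lmFit and eBayes were run on 6 groups of 3 arrays with 12 contrasts, adjusting p (Benjamini-Hochberg) over all probes of each contrast, with a limit of 0.05. Exact permutation tests of 3 against 3 arrays cannot go below 0.1. The fit was tested on simulated data with independent errors and the same spread of a probe on every array. That test therefore does not cover a dim array or deviations shared by same-letter arrays. The members and gene lists were chosen with earlier results of these data known. Other genes were named where they were called between CHD5 shRNA and control, were among the 3 largest called changes from day 5 to day 12 in control, were the 2 most correlated probes of a member detected on all arrays, or led a marker list by signal or were detected on no array; Nsd1, Dpy30, Smyd2, Men1, Tubb3, Syn1, Slc17a7, Cd68 and Aif1 were named after their values were seen. Same-letter arrays of CHD5 shRNA and control deviated together on day 5 (correlations 0.17 to 0.38), but not in every pair on day 9 (-0.20 to 0.43) or day 12 (0.01 to 0.15).

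Alternatives changed the normalization (quantile, median centring, neqc with an offset of 16), the detection filter, the replicate block, array weights, the second measurements and the arrays in the fit, including each array left out in turn, and the other Ezh1 probe. Promoter windows, gene IDs and current symbols came from RefSeq (GRCr8).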

Additional observations from a re-analysis of the deposited data

How the results depend on the processing

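Of 3009 recomputed values of single genes, 2863 kept their side of the limit, 64 lost a call, 82 gained one and 0 called values reversed. Among the 2863 were 176 uncalled values that changed sign. The number of arrays, the dim array and the closeness of Suv39h2 and Ezh1 to background limit these results. The counts of called members that moved are given by setting, and the cause was not tested. The share of all probes called is not given beside the counts of this section, and it can move as well. From day 5 to day 12 after CHD5 shRNA it was 17% with all arrays and 31.6% without the dim array. A count that moved is thus not by itself a result about the members. For CHD5 shRNA against control at day 5 the count fell from 1 to 0 with median centring, no detection filter, array weights, the second measurements or only the 6 arrays of that day. At day 9 it fell from 1 to 0 with median centring or only the arrays of that day. At day 12 it went from 0 to 1 with quantile normalization and 1 with neqc, and to 2 with array weights and 2 with only the arrays of that day. In control from day 5 to day 9 it went from 0 to 1 with quantile normalization and 1 with detection required on every array of a group (3). From day 9 to day 12 it fell from 1 to 0 with median centring, array weights, the second measurements or only the control arrays. From day 5 to day 12 it went from 1 to 0 with median centring, 2 with detection required on every array of a group (3) and 3 with array weights. After CHD5 shRNA from day 5 to day 9 it went from 1 to 0 with median centring and 0 with no filter, to 6 with array weights and 5 with only the CHD5 shRNA arrays. From day 9 to day 12 it went from 0 to 2 with array weights and 1 with only the CHD5 shRNA arrays. From day 5 to day 12 it went from 1 to 4 with quantile normalization, 2 with neqc, 2 with detection required on every array of a group (3), 7 with array weights, 2 with the second measurements and 7 with only the CHD5 shRNA arrays. The change of the CHD5 shRNA difference between days 5 and 12 went from 0 to 1 with array weights.

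With the replicate letter as a block over all days, the count at day 5 between CHD5 shRNA and control fell from 1 to 0. In that block fit the counts in control were 2 from day 5 to day 9 and 2 from day 5 to day 12, and after CHD5 shRNA 2 from day 5 to day 12. The labels do not say whether the letters pair the samples. Same-letter arrays of CHD5 shRNA and control had correlations of 0.17 to 0.38 on day 5, -0.20 to 0.43 on day 9 and 0.01 to 0.15 on day 12.

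Leaving out each array in turn, the counts between CHD5 shRNA and control ranged from 0 to 1 at day 5, from 0 (without CHD5 shRNA day 9 replicate c) to 2 (without control day 9 replicate a) at day 9 and from 0 to 2 (without the dim array) at day 12. In control they ranged from 0 to 5 (without control day 9 replicate a) from day 5 to day 9, from 0 to 1 from day 9 to day 12 and from 1 to 3 from day 5 to day 12. After CHD5 shRNA they ranged from 0 to 4 from day 5 to day 9, from 0 to 1 from day 9 to day 12 and from 1 to 7 (without the dim array) from day 5 to day 12.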
